A study of Mus musculus with 12 samples.

Results

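Expression of 7 inhibitory receptor genes, Pdcd1, Ctla4, Btla, Cd160, Tigit, Lag3 and Havcr2, was examined in mouse CD8 T cells of 4 groups, chosen as a list of named genes. Each gene was measured by a probe set that the platform annotation assigns to exactly 1 gene symbol. These are 7 of the 22180 genes with such a probe set, and all 7 were among the 9862 genes bright enough to be tested, meaning a mean log2 value of at least 5 in at least 1 group.

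Inhibitory receptors are surface proteins that T cells gain on activation and that dampen signalling from the T cell receptor and its costimulators once they meet their ligands. PD-1 (encoded by Pdcd1) and BTLA recruit tyrosine phosphatases, CTLA-4 competes with CD28 for its ligands, TIGIT competes with CD226 in the same way, LAG-3 binds MHC class II, and TIM-3 (encoded by Havcr2) marks strongly differentiated type 1 effector cells. Several of them together on one CD8 T cell are a known feature of chronic stimulation, in which the cells lose effector function, but each is also induced for a time by ordinary activation.

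The study asked how the transcription factor STAT3 shapes Tc17 cells, the interleukin-17-producing form of CD8 T cells, next to Tc1 cells, the interferon-gamma-producing form. Wild-type (WT) cells and cells lacking STAT3 (STAT3-/-, from Cd4cre+ STAT3fl/fl mice) were naive CD8 T cells sorted from spleen and pooled 1:1, so that both genotypes shared a culture until allelic markers were used to sort them apart. Activation was with anti-CD3 (1 µg/ml) and anti-CD28 (3 µg/ml) over 4 days, of which 3 were with IL-12 (Tc1) or with IL-6 and TGFb (Tc17) and the last 1 with IL-2. The 4 groups were therefore Tc1 WT, Tc1 STAT3-/-, Tc17 WT and Tc17 STAT3-/-, each with 3 Affymetrix arrays.

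All groups shared the activation, the culture time and the IL-2 day, and differed in the polarizing cytokines and the genotype. The Cd4 promoter drives Cre in developing T cells of both lineages, so the cells had lacked STAT3 since the thymus, well before activation. The labels used here give no age or strain and name no animal or culture for any array. The p-values are therefore relative to the spread among these samples alone, part of which may be technical. Each group's arrays are labelled biological 1, biological 2 and technical 2. The technical array was averaged with biological 2, giving 2 samples per group. In bulk RNA, fewer cells carrying a transcript and less transcript per cell cannot be told apart.

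Promoter sequences were read from RefSeq for the members whose change is described first below, because Pdcd1, Havcr2 and Tigit rose together in Tc17 cells without STAT3, and for the second Cd160 promoter, the only member window holding the STAT motif. Of the 7 members, 6 matched the promoter table, with 7 promoters between them; Lag3 was not matched. The windows hold the 250 bases before the transcription start (build GRCm38.p6), written 5′ to 3′ on the gene's strand, and lie at chr1:94052554-94052803 on the minus strand for Pdcd1, chr11:46454681-46454930 on the plus strand for Havcr2, chr16:43664185-43664434 on the minus strand for Tigit and chr3:96814522-96814771 on the minus strand for Cd160. Capitals mark matches, on either strand, to 4 motifs: TTCNNNGAA (STAT), TGANTCA (AP-1), GGAAA (the core of NFAT sites) and GGTGTGA (T-box).

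Pdcd1: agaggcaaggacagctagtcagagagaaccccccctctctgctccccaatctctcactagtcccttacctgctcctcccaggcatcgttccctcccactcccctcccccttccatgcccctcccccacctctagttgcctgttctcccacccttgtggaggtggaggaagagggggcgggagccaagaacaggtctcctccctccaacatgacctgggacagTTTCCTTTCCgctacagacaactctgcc
Havcr2: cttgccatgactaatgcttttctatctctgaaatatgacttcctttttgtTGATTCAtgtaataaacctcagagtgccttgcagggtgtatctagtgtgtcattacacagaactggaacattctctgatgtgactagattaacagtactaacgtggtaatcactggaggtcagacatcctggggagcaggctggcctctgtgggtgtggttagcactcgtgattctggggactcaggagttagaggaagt
Tigit: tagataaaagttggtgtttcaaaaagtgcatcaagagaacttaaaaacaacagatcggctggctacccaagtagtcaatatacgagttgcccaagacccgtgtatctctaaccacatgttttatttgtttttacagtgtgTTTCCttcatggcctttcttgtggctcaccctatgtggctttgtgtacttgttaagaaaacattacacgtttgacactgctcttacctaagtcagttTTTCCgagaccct
Cd160: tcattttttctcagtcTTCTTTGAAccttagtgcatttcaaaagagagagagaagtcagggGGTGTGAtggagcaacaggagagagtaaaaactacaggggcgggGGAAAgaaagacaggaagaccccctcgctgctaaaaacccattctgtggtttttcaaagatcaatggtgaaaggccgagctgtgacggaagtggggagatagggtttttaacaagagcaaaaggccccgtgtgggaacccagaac

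The Pdcd1 and Tigit windows each held 2 matches to the NFAT core, read as TTTCC, at 28 to 24 and 23 to 19 bases before the start of Pdcd1 and at 110 to 106 and 13 to 9 bases before that of Tigit. The Havcr2 window held 1 AP-1 match, TGATTCA, at 200 to 194 bases. In the second Cd160 window the STAT match TTCTTTGAA lay at 234 to 226 bases, the T-box match at 189 to 183 and the NFAT core at 145 to 141. The Ctla4 window held 1 NFAT core, and the Btla window and the first Cd160 window held no match to any of the 4 motifs. Among 32851 promoter windows of the same length, 7.02% held the STAT motif, 6.75% the AP-1 motif, 55.6% the NFAT core and 3.33% the T-box motif. The 3 members with the largest rise had no motif in common in these windows, since Havcr2 lacked the NFAT core that Pdcd1 and Tigit share. A match describes the letters only and is no evidence of binding.

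The labels were first checked against the targeted gene. Stat3 lay between 9.77 and 10.72 on the 6 WT arrays and between 6.99 and 7.93 on the 6 STAT3-/- arrays, a change of -2.85 ± 0.18 (log2 ± SE) in Tc17. CD8 T cell markers averaged 10.5 to 10.8 in every group. One array stood apart: the technical array of Tc17 WT had a median correlation of 0.933 with the other arrays over tested genes. The biological arrays of Tc17 WT had 0.9605 and 0.9619, and every array of the other groups had 0.9767 or more. Between the Tc17 genotypes, values without this technical array are given below for Pdcd1, Tigit and Lag3. The comparison of the WT groups and the interaction also use it, and values without it alone are not given for them. The deposited scaling also leaves a shift, as the median of all tested genes was 0.114 higher in Tc17 STAT3-/- than in Tc17 WT. Of the genes called in that comparison 72.7% were higher as deposited, against 49.4% after subtracting array medians, 54.2% after quantile normalization and 51.4% after cyclic loess.

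Loss of STAT3 in Tc17 cells was accompanied by higher Havcr2, Pdcd1, Tigit and Cd160, by lower Btla and Lag3, and by no called change in Ctla4. Of the 7 receptors, 6 were therefore called at an adjusted p under 0.05 (limma, two-sided, Benjamini-Hochberg adjustment over all 9862 genes), 4 of them higher and 2 lower. Of all tested genes 25.1% were called in this comparison, 18.2% higher and 6.83% lower. The arrays of the genotypes did not overlap for the same 6 receptors, nor for 44.3% of all tested genes. The median change of the 7 was 0.48 on the log2 scale, against 0.11 for all tested genes. All values below are log2 values as deposited, and a change of 1 is a doubling.

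Havcr2, whose product TIM-3 marks type 1 effector T cells, had the largest change. The 3 Tc17 WT arrays read 4.64, 4.33 and 4.63 (biological 1, biological 2, technical 2) and the 3 Tc17 STAT3-/- arrays 6.16, 6.15 and 6.20. Every array without STAT3 was above every WT array, with a gap of 1.5 between the nearest pair. The means were 4.56 ± 0.11 in WT and 6.17 ± 0.0095 in STAT3-/- (SD, n = 2 samples each), and the change was 1.60 ± 0.099 (95% interval 1.38 to 1.83; 3.04-fold; adjusted p = 1.4e-05). Tc17 WT was the only group in which any of the 7 receptors had a mean under 5. RMA compresses dim values, and its effect on this fold was not tested.

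Pdcd1, which encodes PD-1, read 7.05, 6.94 and 6.65 in Tc17 WT and 8.14, 8.03 and 8.37 in Tc17 STAT3-/-. The groups did not overlap, and the gap between the nearest arrays was 0.976. The change was 1.24 ± 0.12 (95% interval 0.98 to 1.51; 2.37-fold; adjusted p = 0.000171). Without the technical Tc17 WT array, the lowest of the 6, it was 1.17.

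Tigit, whose product competes with the costimulator CD226 for the nectin-like ligand CD155, read 7.76, 7.84 and 7.32 in Tc17 WT and 8.68, 8.63 and 9.06 in Tc17 STAT3-/-. Again no arrays overlapped, with the technical array the most extreme in both groups. The change was 1.09 ± 0.12 (95% interval 0.81 to 1.37; 2.13-fold; adjusted p = 0.000467), and 0.96 without the technical Tc17 WT array.

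**Figure D1:**
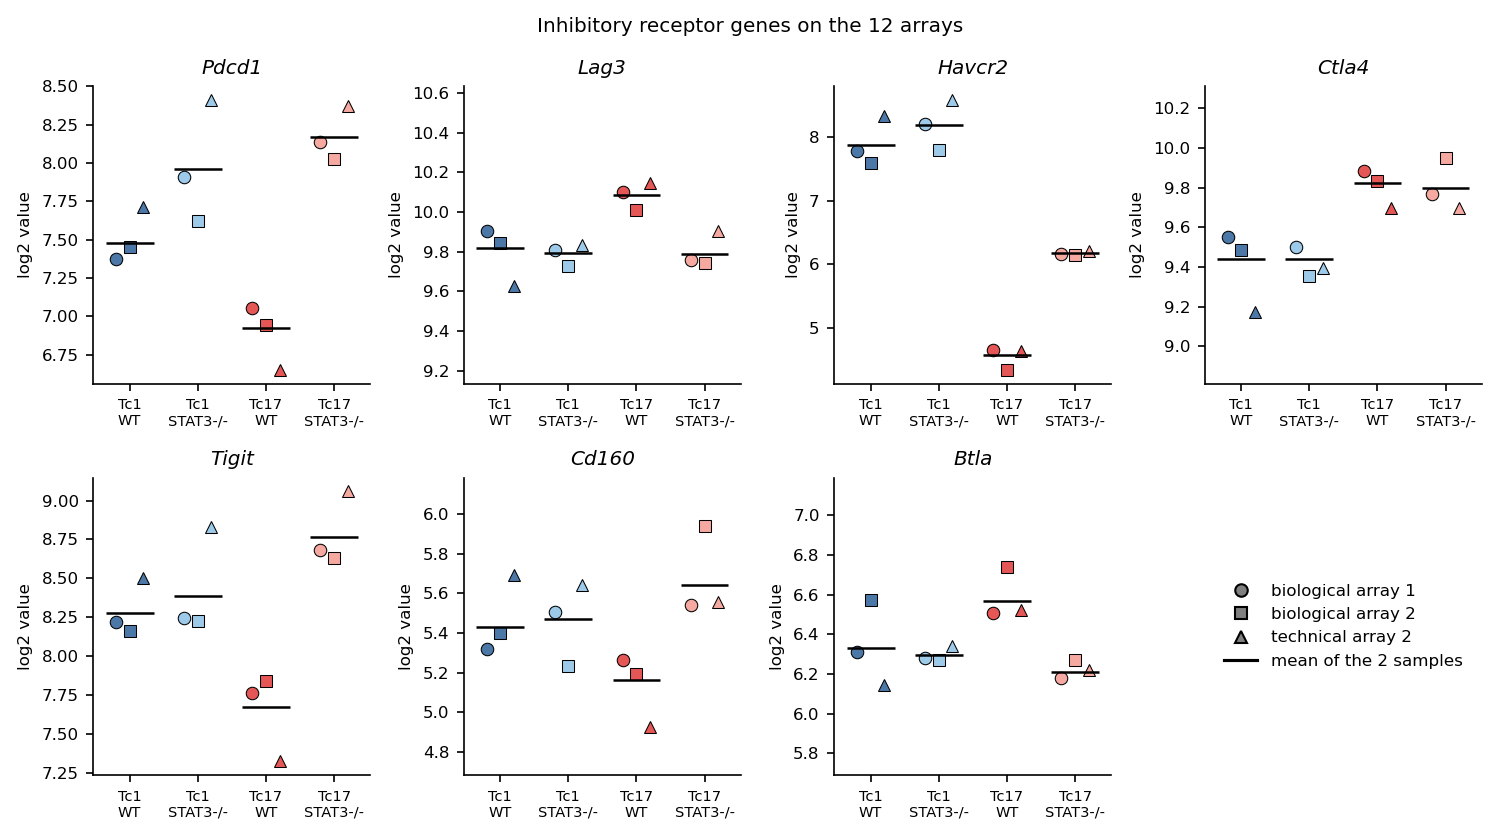
Log2 values (vertical axis, own scale in each panel) of the 7 inhibitory receptor genes on 12 arrays, by group, with circles and squares for the biological arrays, triangles for the technical array and a line at the mean of the 2 samples. The Tc17 WT mean lay lowest for Pdcd1, Havcr2, Tigit and Cd160 and highest for Lag3 and Btla, and the Ctla4 mean was 9.44 in both Tc1 groups and 9.80 or above in both Tc17 groups.

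Cd160 and Btla encode receptors that bind the same ligand, HVEM, the product of Tnfrsf14, and they moved in opposite directions. Cd160 read 5.27, 5.19 and 4.93 in Tc17 WT and 5.54, 5.94 and 5.56 in Tc17 STAT3-/-. It rose by 0.48 ± 0.12 (95% interval 0.21 to 0.76; 1.40-fold; adjusted p = 0.0206). Btla read 6.51, 6.74 and 6.52 in Tc17 WT and 6.18, 6.27 and 6.22 in Tc17 STAT3-/-, and so the arrays of the genotypes were apart for both genes. Btla fell by 0.36 ± 0.089 on the log2 scale (adjusted p = 0.0195), with STAT3-/- 1.28-fold lower. Neither call was firm: without sample 2 of Tc17 WT the adjusted p was 0.0956 for Cd160 and 0.0618 for Btla, without sample 2 of Tc17 STAT3-/- it was 0.157 and 0.0854, and without sample 1 of Tc17 STAT3-/- it was 0.141 for Btla. The Cd160 call was lost with array-median scaling too (adjusted p = 0.0555).

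Lag3, which encodes the MHC class II receptor LAG-3, read 10.10, 10.01 and 10.14 in Tc17 WT and 9.76, 9.74 and 9.90 in Tc17 STAT3-/-. These arrays were also apart, by only 0.106. Lag3 fell by 0.30 ± 0.092 (1.23-fold lower; adjusted p = 0.0438). The call was lost when any of the 8 samples was left out (adjusted p from 0.0573 to 0.226) and without the technical Tc17 WT array (0.0532).

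Ctla4 encodes CTLA-4, the competitor of CD28 for CD80 and CD86. Its arrays read 9.89, 9.83 and 9.70 in Tc17 WT and 9.77, 9.95 and 9.70 in Tc17 STAT3-/-, so the groups overlapped. The difference was -0.03 ± 0.11 with a 95% interval from -0.27 to 0.21 (adjusted p = 0.871). A change as large as that of Pdcd1, Havcr2 or Tigit lies outside this interval.

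In Tc1 cells, cultured with IL-12, 0 of the 7 receptors were called between genotypes, where 0.0608% of all tested genes were. Pdcd1 and Havcr2 had an unadjusted p under 0.05 with limma's default variance model, and 0 receptors were called with its trend and robust options. Pdcd1 read 7.37, 7.45 and 7.71 in Tc1 WT and 7.91, 7.62 and 8.41 in Tc1 STAT3-/-, which overlap. Its difference was 0.49 ± 0.12 (95% interval 0.22 to 0.75; adjusted p = 0.631). Havcr2 read 7.79, 7.59 and 8.34 in Tc1 WT and 8.20, 7.80 and 8.59 in Tc1 STAT3-/-, with a difference of 0.32 ± 0.099 (0.10 to 0.54; adjusted p = 0.998). The technical array was the highest of its group for both genes in both genotypes. For Havcr2 in Tc1 STAT3-/- the SD of the 2 samples was 0.0029, while the arrays ran from 7.80 to 8.59. The spread between the arrays averaged into sample 2 does not enter the SE or the interval. Between arrays of the same label, STAT3-/- was higher for Pdcd1 by 0.54, 0.17 and 0.70 and for Havcr2 by 0.41, 0.21 and 0.25. The last value for each gene is from the technical arrays, which are not samples of their own in the fit. Pairing by label was not established, and the share of all tested genes with such a pattern was not computed. No conclusion is therefore drawn from the shared sign. With the replicate number as a block the adjusted p was 0.402 for Pdcd1 and 0.674 for Havcr2. The other 5 receptors differed by -0.04 to 0.11, and the arrays of the genotypes overlapped for all 7, where 7.79% of all tested genes had arrays apart. The intervals still allow a difference of up to 0.39 for Tigit and 0.31 for Cd160.

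The STAT3 effect itself was compared between the cytokine conditions by the interaction term, the Tc17 change minus the Tc1 change. It was called for Havcr2 (1.28 ± 0.14; adjusted p = 0.00123), Tigit (0.98 ± 0.17; adjusted p = 0.0134) and Pdcd1 (0.76 ± 0.17; adjusted p = 0.0293). These are 3 of 7 receptors called, all 3 higher, where 6.85% of tested genes were called, 4.48% higher and 2.37% lower. For Cd160 the interaction was 0.44 ± 0.17 (adjusted p = 0.157), for Btla -0.32 ± 0.13 (0.163), for Lag3 -0.27 ± 0.13 (0.241) and for Ctla4 -0.03 ± 0.15 (0.931), so a larger STAT3 effect in Tc17 than in Tc1 was not shown for these 4. The Pdcd1 call was lost under all 3 other scalings (adjusted p from 0.0513 to 0.0586) and when either sample of Tc1 STAT3-/- or of Tc17 STAT3-/- or sample 2 of either WT group was left out (0.0545 to 0.126). Tigit was lost without sample 2 of Tc1 WT (0.0531) or of Tc17 STAT3-/- (0.0667), and Havcr2 was kept throughout.

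**Figure D2:**
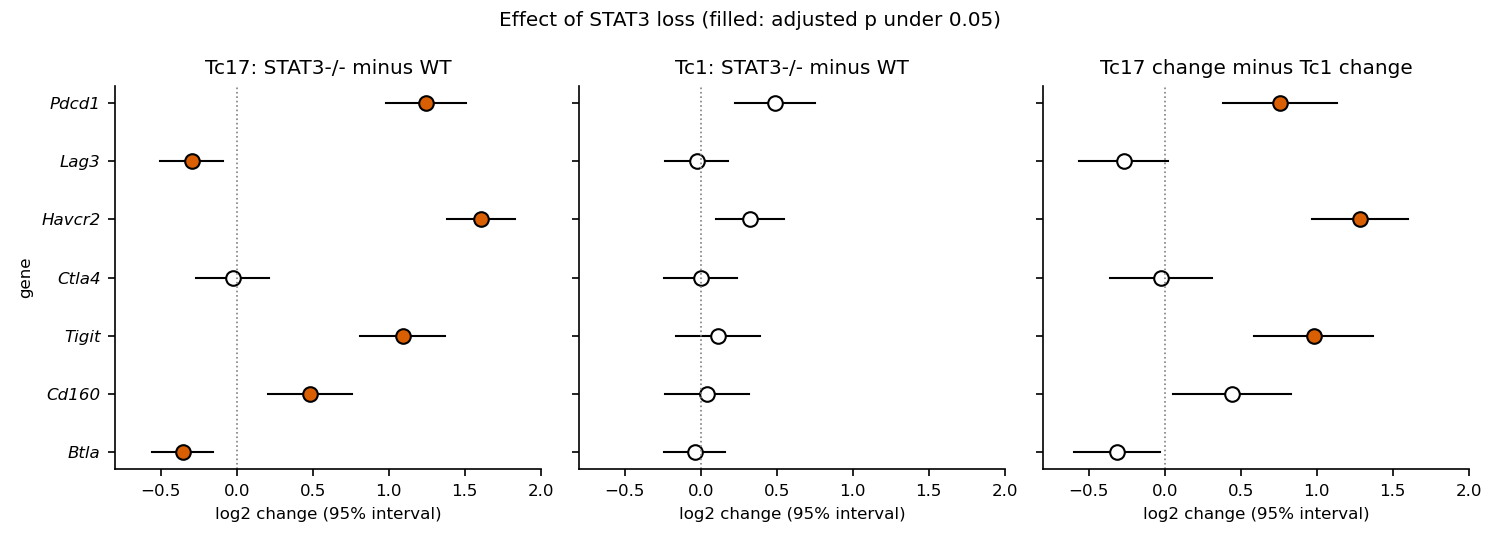
Log2 change with STAT3 loss (horizontal axis, with 95% interval) for each receptor in Tc17, in Tc1 and as the difference between them; filled points have an adjusted p under 0.05. Of the 7 points, 6 are filled in Tc17, 0 in Tc1 and 3 (Pdcd1, Havcr2 and Tigit) for the difference.

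Between the WT groups, Tc17 cells had lower Havcr2, Tigit and Pdcd1 and higher Ctla4 than Tc1 cells. This comparison shares the Tc17 WT samples with the one above, so opposite signs in the 2 are not separate observations. Of the 7 receptors 4 were called, 1 higher and 3 lower, where 25% of all tested genes were called, 7.01% higher and 18% lower. Havcr2 differed by -3.31 ± 0.099 on the log2 scale, 9.93-fold lower on the linear scale (adjusted p = 2.36e-07), and its highest Tc17 WT array lay 2.95 below the lowest Tc1 WT array. This fold rests on the same dim Tc17 WT values. Tigit differed by -0.61 ± 0.12 (adjusted p = 0.00846) from Tc1 WT arrays of 8.22, 8.16 and 8.50, and Pdcd1 by -0.55 ± 0.12 (adjusted p = 0.00978). Between arrays of the same label Tigit differed by -0.46, -0.32 and -1.18 and Pdcd1 by -0.32, -0.51 and -1.06. The last value of each is from the technical arrays. Over the 22 alternative analyses the difference lay between -0.69 and -0.39 for Tigit and between -0.68 and -0.39 for Pdcd1. Both calls were lost without sample 2 of Tc1 WT (adjusted p = 0.0573 for Tigit and 0.0726 for Pdcd1).

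Ctla4 read 9.55, 9.49 and 9.17 in Tc1 WT, below all 3 Tc17 WT arrays, and was 0.38 ± 0.11 higher in Tc17 WT (adjusted p = 0.0288), a call lost without sample 2 of Tc1 WT (0.18), sample 1 of Tc17 WT (0.0761) or either sample of Tc17 STAT3-/- (0.0556). Lag3 was 0.27 ± 0.092 and Btla 0.24 ± 0.089 higher, with adjusted p-values of 0.0629 and 0.0822, and each passed the threshold under all 3 other scalings (0.0126 to 0.0239 for Lag3, 0.034 to 0.0432 for Btla). Cd160 differed by -0.27 ± 0.12 (adjusted p = 0.132). Of the 7, Btla alone had overlapping arrays, as Tc1 WT read 6.31, 6.57 and 6.14; among all tested genes 40.8% had arrays that did not overlap.

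Between the STAT3-/- groups, 1 of the 7 receptors was called, where 2.07% of tested genes were: Havcr2 differed by -2.03 ± 0.099 (4.08-fold lower in Tc17; adjusted p = 5.79e-05). The arrays of Ctla4 were also apart, with Tc1 STAT3-/- at 9.50, 9.35 and 9.40, but its difference of 0.36 was not called (adjusted p = 0.188). For Pdcd1 (0.20), Tigit (0.37), Cd160 (0.17), Lag3 and Btla the arrays overlapped, where 16.4% of all tested genes had arrays apart.

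Tc17 STAT3-/- cells were also set against Tc1 WT, a comparison added after the values had been seen and sharing samples with those above. Here 2 receptors were called, 1 higher and 1 lower, where 2.26% of tested genes were. Pdcd1 was 0.69 ± 0.12 higher than in Tc1 WT (adjusted p = 0.0159) and thus on the other side of Tc1 WT from Tc17 WT, with arrays apart by 0.316. Leaving out sample 1 of Tc1 WT (adjusted p = 0.136) or either sample of Tc17 STAT3-/- (0.107 and 0.164) lost this call. Havcr2 differed by -1.71 ± 0.099 (3.27-fold lower; adjusted p = 5.37e-05). Havcr2 without STAT3 therefore lay between the Tc17 WT and the Tc1 WT level, apart from both. Tigit was 0.49 ± 0.12 higher with arrays apart, as 22.3% of all tested genes were, and missed the threshold (adjusted p = 0.102). It passed with the technical arrays left out (0.0109) and with only these groups fitted (0.0447). Ctla4 was 0.36 ± 0.11 higher (adjusted p = 0.18).

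**Figure D3:**
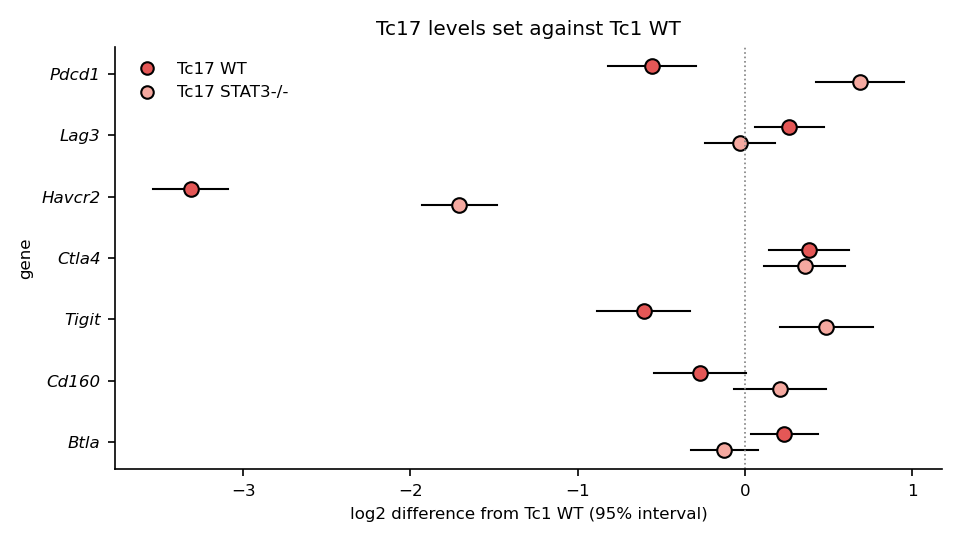
Log2 difference from Tc1 WT (horizontal axis, with 95% interval) of Tc17 WT (dark points) and Tc17 STAT3-/- (light points) for the 7 receptors. Pdcd1 and Tigit lie at -0.55 and -0.61 in Tc17 WT and at 0.69 and 0.49 in Tc17 STAT3-/-, while Havcr2 lies at -3.31 and -1.71.

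The order of the 4 group means fell into 4 patterns. Pdcd1, Tigit and Cd160 ran from Tc17 WT, the lowest, through Tc1 WT and Tc1 STAT3-/- to Tc17 STAT3-/-, over a range of 1.24, 1.09 and 0.48. Of the neighbours in that order, Tc17 WT and Tc1 WT differed beyond their spread for Pdcd1 and Tigit, while the Tc1 genotypes were not called apart, nor were the STAT3-/- groups. Havcr2 ran from Tc17 WT through Tc17 STAT3-/- and Tc1 WT to Tc1 STAT3-/- over 3.63, and only the last step was not called. Lag3 and Btla ran from Tc17 STAT3-/- through Tc1 STAT3-/- and Tc1 WT to Tc17 WT over 0.30 and 0.36, with no called step between neighbours. Ctla4 ran from the Tc1 groups to Tc17 STAT3-/- and Tc17 WT over 0.39, with no called step either.

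The ligands of these receptors were measured in the same CD8 T cells, which are not the cells that usually present them. Of 11 tested ligand genes, 2 were higher and 1 lower in Tc17 STAT3-/- than in Tc17 WT, and 8 were not called (median change 0.13). That is near the share over all tested genes, of which 25.1% were called, 18.2% higher and 6.83% lower. Cd86, a ligand shared by CTLA-4 and CD28, fell by 0.93 ± 0.11 (adjusted p = 0.000776), from 5.72 ± 0.17 to 4.79 ± 0.075. Cd86 was bright enough to test only through Tc17 WT, so the filter favoured a fall. Lgals9, encoding galectin-9, a ligand of TIM-3, rose by 0.64 ± 0.13 (adjusted p = 0.00743), and Cd80 by 0.47 (adjusted p = 0.0306). The Cd80 call was lost in 9 of 22 alternative analyses, all 3 other scalings and sample 2 of Tc17 WT or either sample of Tc17 STAT3-/- left out among them, and the Lgals9 call without sample 2 of Tc17 STAT3-/- (adjusted p = 0.066). Cd274, encoding the PD-1 ligand PD-L1, differed by 0.03 (adjusted p = 0.905); it was chosen for mention after its value was seen. Comparing Tc17 WT with Tc1 WT, 2 ligand genes were higher, Cd86 (1.41) and Lgals3 (0.51), which encodes the LAG-3 ligand galectin-3, and 1 was lower, Hmgb1 (-0.29), which encodes a TIM-3 ligand. Of all tested genes 7.01% were higher and 18% lower there. The calls of Lgals3 and Hmgb1 were lost in 5 and 10 of 22 alternatives, leaving out either sample of Tc1 WT or sample 2 of Tc17 WT among them.

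Of 4 genes whose products share a binding partner with a member, 3 were called, where 25.1% of all tested genes were. Cd226, the activating competitor of TIGIT, was 5.84 ± 0.21 in Tc17 WT and 6.83 ± 0.0047 in Tc17 STAT3-/- and rose by 0.99 ± 0.16 (adjusted p = 0.00282). Cd96, another receptor for CD155, rose by 0.81 ± 0.10 (adjusted p = 9e-04). Thus the 3 genes of the CD155 receptors rose in this comparison. Tnfsf14, which encodes LIGHT, another ligand of HVEM, fell by 1.36 ± 0.11 (adjusted p = 8.05e-05). It too was bright enough to test only through Tc17 WT. Cd28 differed by -0.28 and was not called (adjusted p = 0.0546). Against Tc1 WT, 1 of the 4 was higher in Tc17 WT, Tnfsf14 (1.60), and 1 lower, Cd226 (-1.08). Of all tested genes 7.01% were higher and 18% lower in that comparison.

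Among 10 signalling and trafficking partners, 6 were higher in Tc17 STAT3-/-, 0 lower and 4 not called, with a median change of 0.40 against 0.11 for all genes. Among all tested genes 18.2% were called higher and 6.83% lower. Adam10, a protease that sheds LAG-3 and TIM-3 from the surface, rose by 0.63 (adjusted p = 0.00161). Fyn, a kinase that binds the tail of TIM-3, rose by 0.49 (adjusted p = 0.00526), and Ptpn6, encoding the phosphatase SHP-1, by 0.46 (adjusted p = 0.0241). The Fyn call was lost in 1 and the Ptpn6 call in 5 of 22 alternatives, leaving out either sample of Tc17 STAT3-/- among the latter. Between the WT groups 4 of the 10 were lower in Tc17 and 0 higher, where 18% and 7.01% of all tested genes were. Among the 4 were Adam17, the other shedding protease, at -0.52 and Ptpn11, encoding SHP-2, at -0.36. Both of these calls were lost without sample 1 of Tc1 WT or sample 2 of Tc17 WT, and that of Ptpn11 under all 3 other scalings.

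Inhibitory receptors outside the 7 were called lower more often than higher. Of 8 tested, 1 was higher, 4 were lower and 3 were not called, and their median change was -0.21, opposite in sign to the 0.48 of the 7. Among all tested genes 18.2% were higher and 6.83% lower. Lilrb4a fell by 2.82 ± 0.23 (adjusted p = 6.5e-05), from 10.33 ± 0.13 to 7.51 ± 0.24. Klrc1, encoding the NKG2A chain, fell by 1.91 ± 0.15 (adjusted p = 6.31e-05), and Pecam1, encoding CD31, by 1.22 ± 0.11 (adjusted p = 0.000113). Of the lower ones, Klrc1 was bright enough to test only through Tc17 WT, so the filter favoured its fall. The one that rose was Cd244a, encoding the receptor 2B4, by 1.63 ± 0.15 (adjusted p = 0.00018). Tc17 WT had 5 of these higher and 1 lower than Tc1 WT, with Cd101 at 0.86 among those higher. Of all tested genes 7.01% were higher and 18% lower between the WT groups.

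Transcription factors named in the field as regulators of inhibitory receptors were called in 13 of 17 cases, 5 higher and 8 lower, with a median change of -0.30. Of all tested genes 25.1% were called, 18.2% higher and 6.83% lower. Maf, which encodes c-Maf, fell by 3.21 ± 0.15 (adjusted p = 4.71e-06), from 7.19 ± 0.12 in Tc17 WT to 3.98 ± 0.33, while both Tc1 groups were under 4. Another Maf probe set gave a smaller change, of -1.67 (adjusted p = 0.000222). Maf was bright enough to test only through Tc17 WT, so the filter favoured a fall. Prdm1, which encodes BLIMP-1, rose by 1.47 ± 0.13 (adjusted p = 0.000132), to 8.12 ± 0.042, close to the Tc1 WT mean of 8.18 ± 0.044. Bach2, a repressor of effector genes, fell by 0.99 ± 0.089 (adjusted p = 0.000131). The T-box factors Tbx21 (T-bet) and Eomes rose by 0.63 (adjusted p = 0.00323) and 0.67 (adjusted p = 0.0174), and were lower in Tc17 WT than in Tc1 WT by 0.99 and 1.58. The Eomes call in Tc17 was lost without sample 2 of Tc17 WT or either sample of Tc17 STAT3-/- (adjusted p from 0.0536 to 0.12). Tc17 WT had 9 of these 17 higher and 4 lower than Tc1 WT, where 7.01% and 18% of all tested genes were.

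Of 10 general activation markers, 1 was higher and 1 lower in Tc17 STAT3-/-, and 8 were not called (median change -0.19), where 25.1% of all tested genes were called. Egr3, an immediate early gene of T cell receptor signalling, rose by 0.57 (adjusted p = 0.00592), and Tnfrsf4, encoding OX40, fell by 0.46 (adjusted p = 0.00718). The Egr3 call was lost in 4 of 21 alternatives, with the technical arrays left out among them, and the Tnfrsf4 call without sample 1 of Tc17 STAT3-/-. Between the WT groups 4 were higher and 1 lower in Tc17, with Cd44 at 0.82 and Cd69 at 0.73 the largest; the Cd69 call was lost without sample 2 of Tc1 WT (0.166) or sample 1 of Tc17 WT (0.124). In Tc1 cells STAT3 loss gave 0 calls in any of these 6 lists, where 0.0608% of all tested genes were called. Between the WT groups that share was 25%, with 7.01% higher and 18% lower.

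**Figure D4:**
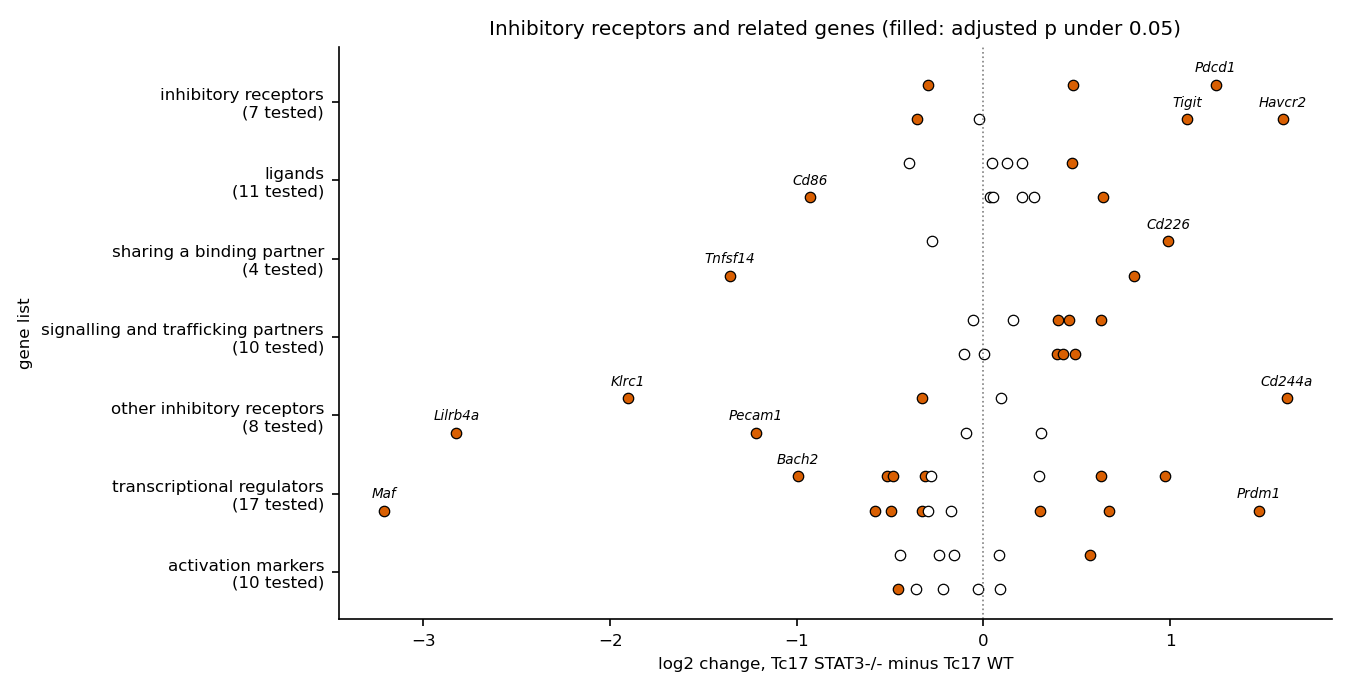
Log2 change from Tc17 WT to Tc17 STAT3-/- (horizontal axis) of every tested gene of 7 lists, 1 point per gene, filled where the adjusted p is under 0.05. Pdcd1, Havcr2 and Tigit lie beyond 1, whereas Lilrb4a, Klrc1 and Pecam1 among the other inhibitory receptors lie below -1.

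Markers of other cells were read beside these results. Of 6 CD8 T cell markers 1, Cd8a, was called in Tc17, at 0.30 (adjusted p = 0.0446), where 25.1% of all tested genes were called. Of the CD4 and regulatory T cell markers, Cd4 stayed between 5.08 and 5.34 in the 4 group means and Zbtb7b was not called. Foxp3 was 5.23 in Tc1 WT, 5.09 in Tc1 STAT3-/-, 7.25 in Tc17 WT and 8.25 in Tc17 STAT3-/-. It rose by 1.00 ± 0.22 in Tc17 (adjusted p = 0.0108). Its arrays overlapped there, at 6.72 to 8.53 in WT and 7.90 to 8.89 in STAT3-/-. Of 2 tested B cell markers both rose, Ighm by 1.77 ± 0.096 (adjusted p = 8.95e-06) and Cd79b by 0.78 (adjusted p = 0.00183), while Cd79a and Ms4a1 were too dim to test in every group. The mean of the 4 B cell markers was 5.53 to 5.62 on the Tc17 WT arrays and 6.11 to 6.19 on those of Tc17 STAT3-/-. It was 5.79 to 5.89 on those of Tc1 WT and 5.84 to 6.04 on those of Tc1 STAT3-/-. The mean of 4 NK cell markers was 3.44 to 3.74 on all arrays, and none was bright enough to test. Of 7 myeloid markers 5 were too dim to test, Cd68 fell by 1.12 (adjusted p = 0.000243) and the mean was 4.82 to 5.03. The other tested one, H2-Ab1, was bright, with group means of 9.25 to 9.42, and was not called in Tc17 (0.05, adjusted p = 0.816). The part of Foxp3, Ighm or Cd68 in the receptor results was not tested.

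For each receptor the 2 genes with the most similar pattern over the 8 samples were found among 455 genes whose group means span at least 1. The correlations describe 8 points in 4 groups and share the group differences above. For Pdcd1 these were Glp1r (Pearson r = 0.967) and Prkca (0.962), and for Tigit Glp1r (0.989) and Mndal (0.961). Glp1r was also second for Cd160 (0.914), after Cdc14a (0.915), so it recurs for the 3 receptors with the same order of means. Its own means were 5.52 in Tc1 WT, 5.87 in Tc1 STAT3-/-, 4.52 in Tc17 WT and 6.68 in Tc17 STAT3-/-. Havcr2 was closest to Gm17767 (0.994) and Sema4a (0.993), both lowest in Tc17 WT and intermediate in Tc17 STAT3-/-. Lag3 was closest to Traf1 (0.979) and Cysltr2 (0.958), Btla to Serpinf1 (0.978) and Batf3 (0.972), all highest in Tc17 WT. Ctla4 was closest to Npas2 (0.992) and Rragd (0.97), both higher in Tc17 than in Tc1 whatever the genotype.

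**Figure D5:**
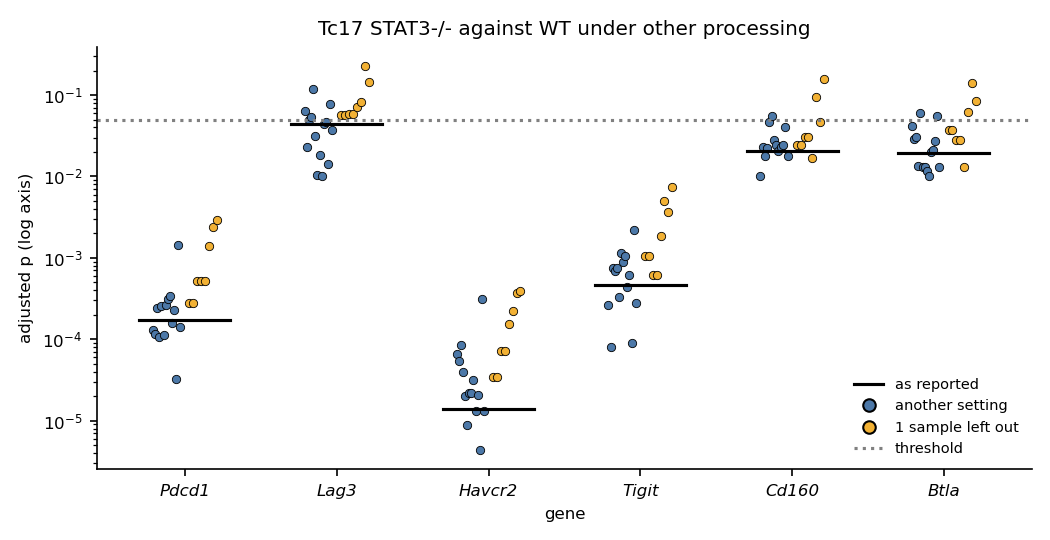
Adjusted p (vertical log axis) of the 6 receptors called in Tc17 STAT3-/- against WT under other processing (blue) and with 1 sample left out (yellow), with a bar at the reported value and a dotted line at 0.05. Pdcd1, Havcr2 and Tigit stay under the line in all 22 alternatives, and Lag3 lies above it in 12.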

How the data were processed

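Total RNA of 12 samples (4 groups, 3 Affymetrix arrays each) was measured. The deposited values are log2 expression per probe set, made by the authors with RMA and Partek per the submitters' processing notes; which tool did which step is not given in the sources used here, nor are versions. RMA compresses dim values. Of 41345 probe sets, 23521 had 1 gene symbol, 1814 several and 16010 none as used here; the brightest was kept per gene (22180 genes; each receptor had 1). A RefSeq gene table changed 0 symbols. A group mean of at least 5 left 9862 genes.

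The technical array was averaged with biological 2. Array pairs differed by an SD of 0.144 to 0.192 (biological 1 and 2) and 0.209 to 0.352 (biological 2 and technical). One linear model for the 4 groups was fitted in R 4.3.3 by limma 3.58.1 (lmFit, contrasts.fit, eBayes; 4 residual degrees of freedom). Tables were handled with data.table (1.17.8). Adjusted p-values are two-sided limma p-values after Benjamini-Hochberg adjustment over all tested genes. Intervals are for single genes and not adjusted. With arrays, the number of samples limits the precision. Figures used Python 3.11.15 and matplotlib 3.10.9. On simulated data for the Tc17 comparison (9862 genes, 100 changed by 1 and 100 by 0.5), 87% of changes of 1 and 41% of changes of 0.5 were recovered. Of the calls made there, 5.88% were false. Far more genes, 25.1%, were called in the real comparison, so these rates do not carry over to it.

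The receptors and gene lists were chosen with earlier results of these data known. Other genes named were, per list, up to 3 called in Tc17 by genotype and up to 2 more called between WT groups (largest change). The 2 most alike per receptor were named too. Cd28, Cd274 and the remaining regulators called in Tc17 by genotype were added. The alternatives were the handling of technical arrays, dim filter, scaling, probe set choice, variance model, groups fitted, replicate block and each sample left out. Pvrig, Lck, Tcf7 and Klra8 had no probe set with 1 symbol as used here.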

Additional observations from a re-analysis of the deposited data

Results flagged for a closer look

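The effect of STAT3 loss differed between Tc17 and Tc1 cells for the genes below, by the interaction term (Tc17 change minus Tc1 change, log2, limma adjusted p over all tested genes). Among the receptors it was 0.76 for Pdcd1, 1.28 for Havcr2 and 0.98 for Tigit, as given above. Among ligands and genes that share a binding partner it was -0.90 for Cd86 (adjusted p = 0.0143), -1.20 for Tnfsf14 (0.00335) and 0.61 for Cd96 (0.0422). The Cd96 difference was lost in 10 of 21 alternatives and that of Cd86 in 2 of 20. Among other inhibitory receptors it was -2.58 for Lilrb4a (0.00238), -1.46 for Klrc1 (0.00563), 1.52 for Cd244a (0.00515) and -1.37 for Pecam1 (0.00123). Among regulators it was -3.00 for Maf (0.000162), 1.33 for Prdm1 (0.00477), -1.07 for Bach2 (0.00183) and 0.64 for Tbx21 (0.0357), the last lost in 7 of 21 alternatives. These are not all the calls: of 17 tested regulators 2 were higher and 5 lower by this term, where 4.48% and 2.37% of all tested genes were. Among the genes most alike in pattern, which were chosen for their likeness to a receptor over these same samples, it was 1.81 for Glp1r, 0.92 for Prkca, 2.31 for Mndal, 0.91 for Cdc14a, 0.77 for Gm17767, 0.99 for Sema4a, -1.18 for Traf1, -1.59 for Cysltr2 and -2.01 for Batf3 (adjusted p from 0.000474 to 0.0241). Of these the call was lost in 9 of 21 alternatives for Gm17767, 4 for Cdc14a, 3 for Prkca and 1 for Cysltr2. Among the markers of other cells it was 1.70 for Ighm (0.00026), 0.74 for Cd79b (0.0285) and -1.09 for Cd68 (0.00539). Cd86, Tnfsf14, Klrc1 and Maf were bright enough to test only through Tc17 WT, so the filter favoured negative values for them. Groups of 2 samples were too small to test for outlying samples.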

How the results depend on the processing

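There were 22 alternatives (21 for the interaction). Of 16 called receptor results 7 were kept under every one, and of 26 not called 21 stayed so. The 7 were Havcr2 in every comparison except that of the Tc1 genotypes, and Pdcd1 and Tigit between the Tc17 genotypes. These comparisons share samples, so the 7 are not separate observations. Of the called results, 0 changed direction. With technical arrays left out, 3 receptors were called between the STAT3-/- groups, Ctla4 (adjusted p = 0.0361) and Tigit (0.0194) besides Havcr2, while 4.15% of all tested genes were called against 2.07%. With technical arrays as samples of their own, 1 was called between Tc17 STAT3-/- and Tc1 WT, since Pdcd1 missed (0.0861). Leaving out 1 sample gave 3 to 5 called receptors for the Tc17 genotypes (3 without sample 2 of either group; 9.56% to 32.4% of all tested genes), 1 to 3 for the interaction (1 without sample 2 of Tc1 WT or of Tc17 STAT3-/-; 2.47% to 15.8%), 1 to 4 between WT groups (1 without sample 2 of Tc1 WT; 11.2% to 32.8%) and 1 to 2 for Tc17 STAT3-/- against Tc1 WT (1 without sample 1 of Tc1 WT or either sample of Tc17 STAT3-/-; 0.902% to 2.73%). A lone sample is assumed to vary like the other groups. The replicate block left the counts at 6, 0, 3, 4, 1 and 2. The labels do not say that a number marks a shared culture. The correlation of same-numbered deviations was 0.455 between the Tc1 genotypes, 0.0988 between the Tc17 genotypes and 0.098 to 0.16 across the cytokine conditions. Without technical arrays these were 0.172, 0.0291 and 0.000364 to 0.0794. Pairing by number was therefore not established. In Tc17, Lag3 was also lost with technical arrays averaged into replicate 1 (0.0644), with no dim filter (0.117) and with only the contrast's groups fitted (0.0768), and Btla with the latter pair (0.0595 and 0.0552). Of the other genes run through these alternatives and called in Tc17, 23 of 32 kept their call throughout. The cause of these changes was not tested.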
